A study of Homo sapiens with 48 samples.

Results

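TCP1, CCT2, CCT3, CCT4, CCT5, CCT6A, CCT7 and CCT8 encode the subunits of the cytosolic chaperonin CCT, also called TRiC. They were chosen by gene symbol, as the genes of the ring that both deposited tables hold, and all 8 were found among 11145 genes with ribosome-protected fragment (RPF) values and 11947 genes with total RNA values. CCT is a double ring with one copy of each subunit in each ring, so it needs all of its subunits together. Newly made actin, tubulins and many WD repeat proteins are handed into its cavity by cochaperones such as prefoldin, and the closing of the cavity, driven by ATP, folds them. The names follow the subunits' Greek letters, with TCP1 as alpha and CCT2 to CCT8 as beta to theta, and CCT6A as zeta.

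The cells were SW480, a human colorectal cancer line with mutant APC, stably transduced with lentiviral, DOX-inducible shRNAs. The shCTRL line carried a non-targeting shRNA, the shEIF2B1 line an shRNA against eIF2Bα and the shEIF2B4 line one against eIF2Bδ. Both proteins belong to eIF2B, the exchange factor that recharges eIF2 for translation initiation. Cells of each line received 1 µg/ml DOX (+DOX) or DMSO alone (-DOX) over 5 days. The 4 replicates came from separate weeks, and each of the 24 lysates gave an RPF library and a total cytoplasmic RNA library. One shRNA per target was used, and the study's methods describe transduced cells as analysed in selected pools rather than as single clones. Values are regularized log2 values, so a difference of 1 is a doubling, and translation efficiency (TE) is the log2 RPF value minus the log2 total RNA value of the same lysate.

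The stretch of coding sequence (CDS) around the ATP-binding site shows how alike the subunits are and where they differ. Each run below, from GENCODE v29 transcripts on GRCh38, holds 21 codons around the codons for glycine, aspartate, glycine and threonine, which all 8 proteins share there and which start at codon 9 of each run. Capitals mark the third base of each codon, the position at which subunits can differ in GC content while coding for the same residue.
TCP1: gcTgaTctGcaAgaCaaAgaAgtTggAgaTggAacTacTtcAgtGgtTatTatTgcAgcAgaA
CCT2: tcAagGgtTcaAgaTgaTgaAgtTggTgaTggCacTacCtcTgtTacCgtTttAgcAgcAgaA
CCT3: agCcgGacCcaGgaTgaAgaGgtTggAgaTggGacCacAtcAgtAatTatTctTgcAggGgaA
CCT4: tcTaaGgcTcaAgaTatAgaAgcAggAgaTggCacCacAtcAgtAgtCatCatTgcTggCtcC
CCT5: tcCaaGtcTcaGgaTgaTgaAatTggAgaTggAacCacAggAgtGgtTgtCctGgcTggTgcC
CCT6A: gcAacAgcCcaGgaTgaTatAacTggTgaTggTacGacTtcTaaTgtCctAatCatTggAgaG
CCT7: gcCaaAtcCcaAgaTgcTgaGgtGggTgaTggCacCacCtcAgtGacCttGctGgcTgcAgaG
CCT8: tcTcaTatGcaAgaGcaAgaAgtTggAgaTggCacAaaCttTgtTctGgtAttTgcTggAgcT

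Of the 21 bases in capitals, 12 were G or C in CCT7, 8 in CCT3, 8 in CCT5, 7 in CCT4, 6 in CCT6A, 5 in CCT8, 4 in CCT2 and 3 in TCP1. The runs lie in single exons for CCT2 (exon 5 of 16, chr12:69587935-69587997, plus strand), CCT4 (exon 4 of 14, chr2:61880320-61880382, minus strand), CCT6A (exon 3 of 14, chr7:56054408-56054470, plus strand) and CCT8 (exon 4 of 15, chr21:29067607-29067669, minus strand). They cross a splice junction in the other subunits. TCP1 has it in exons 3 and 4 of 12 (chr6:159787743-159787787 and chr6:159785980-159785997, minus strand). In CCT3 it runs over exons 5 and 6 of 14 (chr1:156333547-156333601 and chr1:156325082-156325089, minus strand). CCT5 has it in exons 3 and 4 of 11 (chr5:10254790-10254838 and chr5:10255955-10255968, plus strand), and CCT7 in exons 3 and 4 of 12 (chr2:73240523-73240543 and chr2:73243004-73243045, plus strand). The 8 genes thus lie on 7 chromosomes, with CCT4 and CCT7 both on chromosome 2. Only for CCT5 was the transcript version the one of the deposited table, since the authors used GENCODE v38.

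Over whole CDSs of 520 to 556 codons the share of codons with G or C at the third base (GC3) was 31.8% in CCT8, 33.3% in CCT2, 34.0% in TCP1, 38.4% in CCT4, 42.2% in CCT6A, 49.0% in CCT5, 56.7% in CCT3 and 57.8% in CCT7. All lay under the median of 59.7% over the 10847 genes with a CDS. CCT8 had a lower GC3 than all but 3.19% of those genes.

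The targeted genes were lower in their own lines. EIF2B1 changed by -0.53 in RPFs (limma, adjusted p = 0.0109) and by -0.67 in total RNA (limma, adjusted p = 0.0263) upon shEIF2B1. EIF2B4 changed by -0.49 in total RNA upon shEIF2B4 (limma, adjusted p = 0.0634), and its RPF change of -0.48 did not pass the threshold (limma, adjusted p = 0.236). Of 7 colon epithelial markers 6 were in both tables, CDH1 at a low level, and VIL1 was in neither, nor were any of the 8 markers of blood, endothelium or fibroblasts. Library medians were 6.98 to 7.12 in the RPF libraries of shCTRL and shEIF2B1 and 6.84 to 6.97 in those of shEIF2B4. Both targets were already lower before induction. In RPFs EIF2B1 was at -0.45 in uninduced shEIF2B1 relative to uninduced shCTRL (limma, adjusted p = 0.0272), and EIF2B4 at -0.42 in uninduced shEIF2B4 (limma, adjusted p = 0.0382).

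RPF levels of these genes differed between weeks, though not alike in every group. The mean log2 RPF level over the 8 subunits was 11.17, 11.76, 11.42 and 11.98 in shCTRL -DOX replicates 1 to 4, and 10.85, 11.90, 11.88 and 11.94 in shEIF2B4 -DOX. Replicate 1 was thus the lowest in both of these uninduced lines, and in shEIF2B4 -DOX it stood well apart from the other three. In shCTRL +DOX the means were 11.51, 11.12, 11.29 and 11.89, with replicate 2 the lowest. From week to week in shCTRL -DOX the RPF level spanned 1.33 in CCT8, 1.13 in TCP1, 0.91 in CCT4 and 0.90 in CCT2, against 0.37 in CCT7 and a median span of 0.48 over all genes. The replicate was therefore kept as a block in every comparison, and results that rest on replicate 1 are given without it as well.

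**Figure D1:**
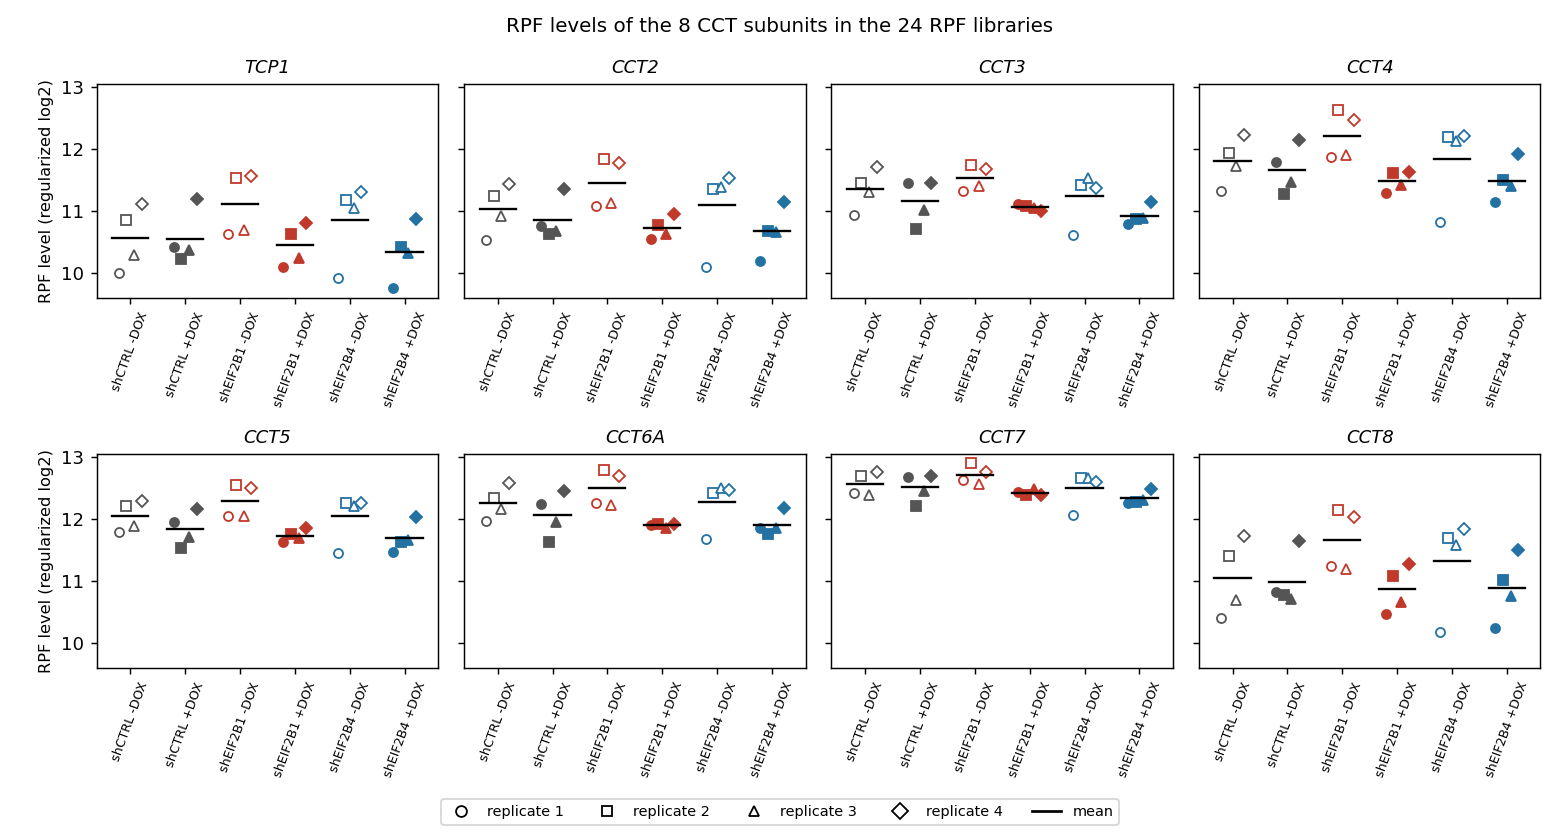
RPF level (regularized log2, vertical axis) of each subunit in the 24 RPF libraries, by line and treatment, with marker shapes for the 4 replicates, open markers for -DOX, filled markers for +DOX and bars at the group means. In every panel the shEIF2B1 +DOX mean lies below the shEIF2B1 -DOX mean, and replicate 1 of shEIF2B4 -DOX is the lowest point of its group.

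All 8 subunits were abundant. Their mean levels over 24 libraries reached the 99.1 percentile of genes in RPFs (CCT7) and the 98.5 percentile in total RNA (CCT6A), and the lowest was TCP1 in total RNA, at the 93.9 percentile. Per kilobase of CDS, the log2 RPF level in shCTRL -DOX was highest in CCT7, at 11.86 ± 0.187 (SD, n = 4). CCT6A followed at 11.59 ± 0.264, CCT5 at 11.40 ± 0.245, CCT4 at 11.11 ± 0.382 and CCT3 at 10.64 ± 0.321 (SD, n = 4 each). CCT2 at 10.35 ± 0.395 and CCT8 at 10.33 ± 0.612 did not differ beyond their spread, and TCP1 was lowest at 9.82 ± 0.515 (SD, n = 4 each). Neighbours in this order differed by less than the larger of their SDs, except CCT7 from CCT6A and CCT4 from CCT3, and its ends were 4.12-fold apart. The subunits were measured in the same libraries, so these SDs are not the spread of their differences. Within each replicate the order held between all neighbours but CCT2 and CCT8, which changed places. In replicate 4 CCT8, at 11.0018, also lay just above CCT3, at 10.998. CCT7 was the highest and TCP1 the lowest in all 6 groups, although the complex holds its subunits in equal number.

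The order in total RNA was another one. Per kilobase of transcript, CCT6A at 11.03 ± 0.177 and CCT5 at 11.01 ± 0.188 were the highest in shCTRL -DOX, CCT7 was at 10.36 ± 0.155, and TCP1 was again lowest at 9.64 ± 0.124 (SD, n = 4 each, log2). The RPF level of CCT7 therefore stood further above its RNA level than in any other subunit. Its log2 RPF per kilobase of CDS minus log2 total RNA per kilobase of transcript was 1.51 ± 0.0444, against 0.56 ± 0.137 in CCT6A, the next highest, and 0.18 ± 0.421 in TCP1, the lowest (SD, n = 4 each). The study describes these RPFs as aligned to CDSs, and the tables were normalized separately, so only the differences between genes can be read from this value.

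**Figure D2:**
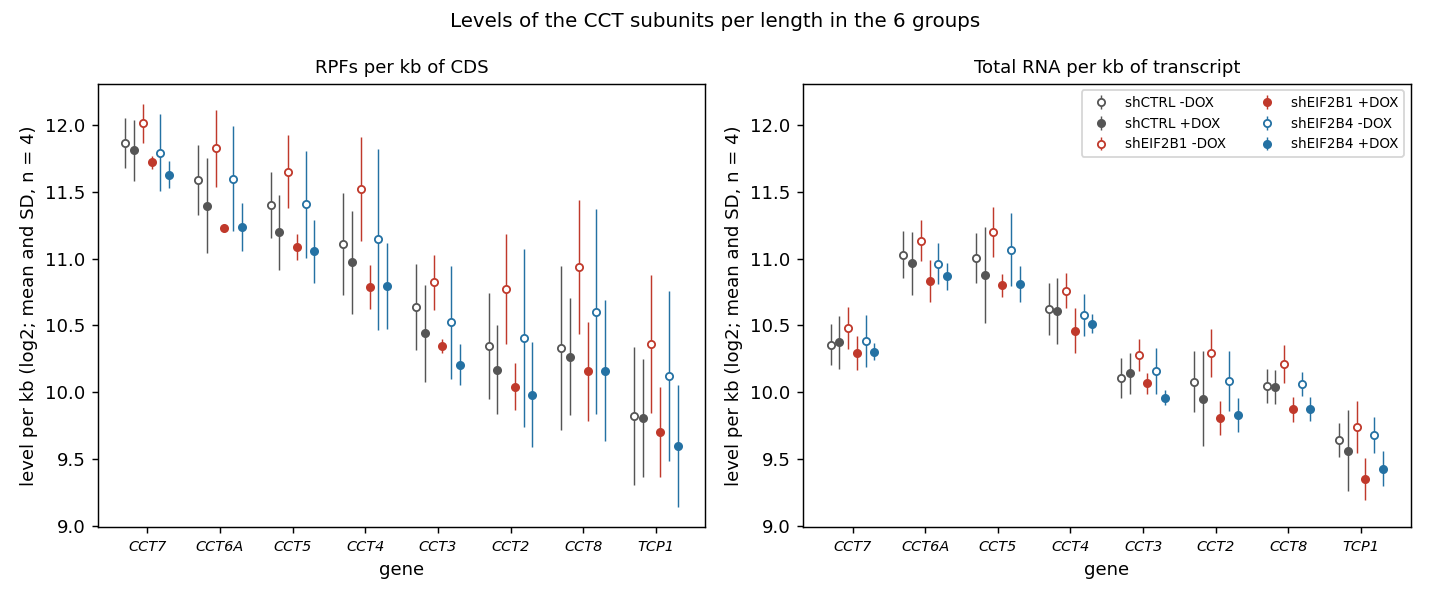
Level per kilobase (log2, mean with SD bars, n = 4) of each subunit in the 6 groups, as RPFs per kilobase of CDS on the left and total RNA per kilobase of transcript on the right, with open markers for -DOX and filled markers for +DOX. CCT7 leads on the left, at 11.86 in shCTRL -DOX, but not on the right, where CCT6A and CCT5 lie above it, and TCP1 is lowest on both sides.

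Upon induction of shEIF2B1, the RPF levels of TCP1, CCT2, CCT4 and CCT8 fell relative to shCTRL. The response is the +DOX minus -DOX change of the shEIF2B1 line less that of shCTRL, estimated with limma from 16 libraries, and a gene counts as called where its p, adjusted over all genes by Benjamini and Hochberg, is under 0.1. By that rule 4 of 8 subunits were called lower and none higher, where 15.3% of all genes were called lower and 12% higher. The response was below 0 in all 8, with a median of -0.48 against -0.01 over all genes.

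CCT8, the theta subunit, had the lowest response. Its log2 RPF level in replicates 1 to 4 was 11.24, 12.14, 11.20 and 12.03 in shEIF2B1 -DOX and 10.47, 11.08, 10.67 and 11.28 in shEIF2B1 +DOX. In shCTRL it was 10.39, 11.39, 10.70 and 11.72 -DOX and 10.82, 10.77, 10.71 and 11.64 +DOX. The 2 shEIF2B1 groups overlapped slightly, weeks 2 and 4 being the higher ones in this line, but each week's level fell on induction, which was not so in shCTRL. The response was -0.71 (SE 0.188; limma, adjusted p = 0.0139), below 0 in 4 of 4 weeks, so that RPFs fell by 39.0%.

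TCP1, the alpha subunit that gave the complex its name, came next. Its log2 RPF level was 10.63, 11.53, 10.68 and 11.56 in shEIF2B1 -DOX and 10.09, 10.63, 10.24 and 10.80 in shEIF2B1 +DOX, against 9.99, 10.85, 10.28 and 11.12 in shCTRL -DOX and 10.41, 10.21, 10.37 and 11.20 in shCTRL +DOX. In shEIF2B1 each week's induced library was lower, and in shCTRL only that of replicate 2. The response was -0.65 (SE 0.189; limma, adjusted p = 0.0233), below 0 in 4 of 4 weeks.

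CCT4, the delta subunit, had 11.86, 12.62, 11.90 and 12.47 in shEIF2B1 -DOX and 11.28, 11.61, 11.42 and 11.62 in shEIF2B1 +DOX. In shCTRL it had 11.32, 11.94, 11.72 and 12.23 -DOX and 11.78, 11.27, 11.46 and 12.15 +DOX. The shEIF2B1 groups did not overlap, and the shCTRL groups did. The response was -0.59 (SE 0.208; limma, adjusted p = 0.0527), below 0 in 4 of 4 weeks.

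CCT2, the beta subunit, had log2 RPF levels of 11.08, 11.84, 11.12 and 11.78 in shEIF2B1 -DOX and 10.54, 10.77, 10.63 and 10.95 in shEIF2B1 +DOX. In shCTRL they were 10.53, 11.24, 10.91 and 11.43 -DOX and 10.76, 10.63, 10.68 and 11.34 +DOX. Again the shEIF2B1 groups did not overlap and the shCTRL groups did. The response was -0.55 (SE 0.170; limma, adjusted p = 0.0301), below 0 in 4 of 4 weeks.

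The other 4 subunits had responses that did not pass the threshold. They were -0.40 in CCT6A (95% interval -0.80 to 0.00; limma, adjusted p = 0.149), -0.36 in CCT5 (-0.70 to -0.02; adjusted p = 0.130), -0.28 in CCT3 (-0.71 to 0.15; adjusted p = 0.355) and -0.23 in CCT7 (-0.57 to 0.10; adjusted p = 0.315). Their intervals overlap those of the 4 called subunits. At an unadjusted p under 0.05 (limma) there were 5 subunits, CCT5 beside the 4 called ones, where 33.8% of all genes were.

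The calls depended on single weeks. Without replicate 1 none of the 8 was called, with responses from -0.55 to -0.13, where 14% of all genes were called in either direction. Without replicate 4 only CCT8 was called, where 13.7% of all genes were, and without replicate 2 the called ones numbered 6, where 24.4% were. Without the replicate block none was called, at the same responses, where 0.449% of all genes were.

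**Figure D3:**
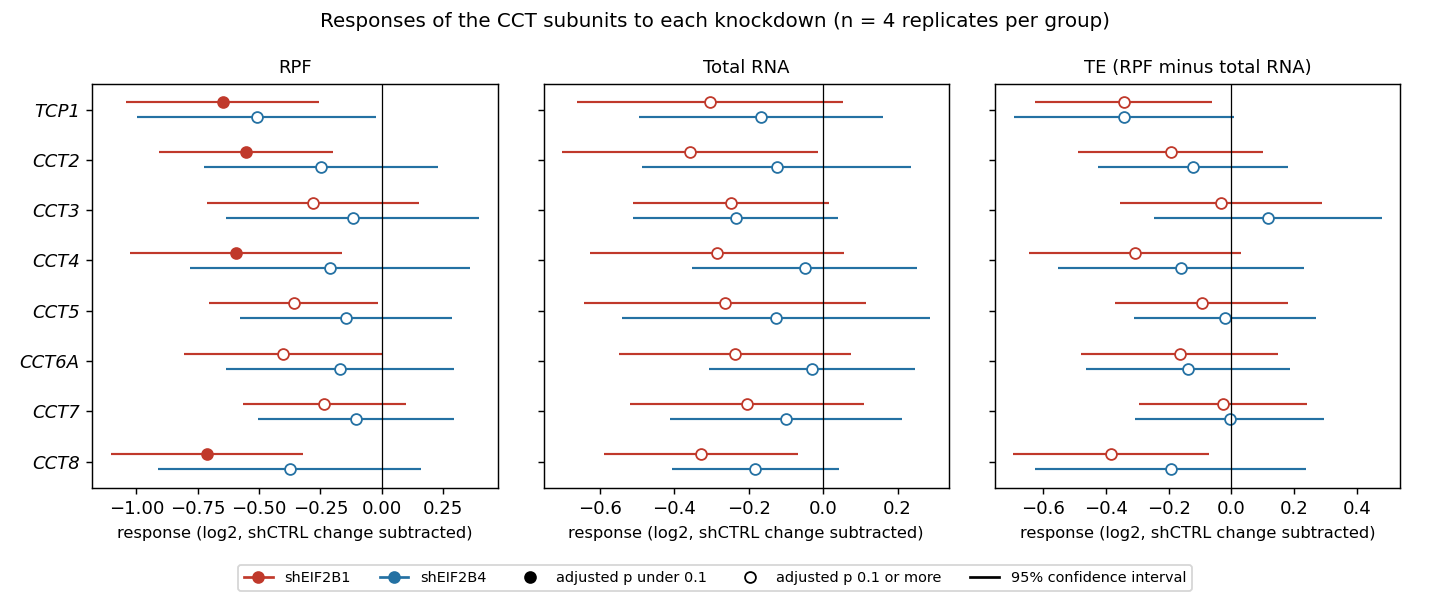
Response of each subunit to shEIF2B1 (red) and shEIF2B4 (blue) on the log2 scale (horizontal axis), with the shCTRL change subtracted, in RPFs, total RNA and TE, with 95% confidence intervals from limma and filled markers where the adjusted p is under 0.1. The 4 filled markers are TCP1, CCT2, CCT4 and CCT8 in RPFs upon shEIF2B1, and every marker but that of CCT3 in TE upon shEIF2B4 lies left of 0.

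The level before induction differed between the lines. In RPFs, uninduced shEIF2B1 was above uninduced shCTRL in all 8 subunits, and TCP1, CCT2, CCT4 and CCT8 were called higher (20.3% of all genes were called higher and 14.3% lower). The difference was 0.60 in CCT8 (SE 0.171; limma, adjusted p = 0.0357), 0.54 in TCP1 (SE 0.137; adjusted p = 0.0301), 0.42 in CCT2 (SE 0.150; adjusted p = 0.0613) and 0.41 in CCT4 (SE 0.156; adjusted p = 0.0748), and above 0 in 4 of 4 weeks in each. In the others it was 0.15 to 0.25, with adjusted p from 0.123 to 0.319. Without replicate 2 or without replicate 4 none was called, where 0% of all genes were called in either fit.

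These are the 4 subunits called in the response, and both comparisons use the same 8 uninduced libraries, so they are not independent. After induction, shEIF2B1 and shCTRL lay close together. The induced shEIF2B1 level minus the induced shCTRL level was -0.11 in CCT8 (95% interval -0.34 to 0.12), -0.11 in TCP1 (-0.34 to 0.13), -0.13 in CCT2 (-0.35 to 0.09) and -0.18 in CCT4 (-0.44 to 0.07), and from -0.17 to -0.09 in the others. None was called among the induced libraries (limma, adjusted p 0.428 to 0.734), where 10.5% of all genes were. This comparison was chosen after seeing the data.

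**Figure D4:**
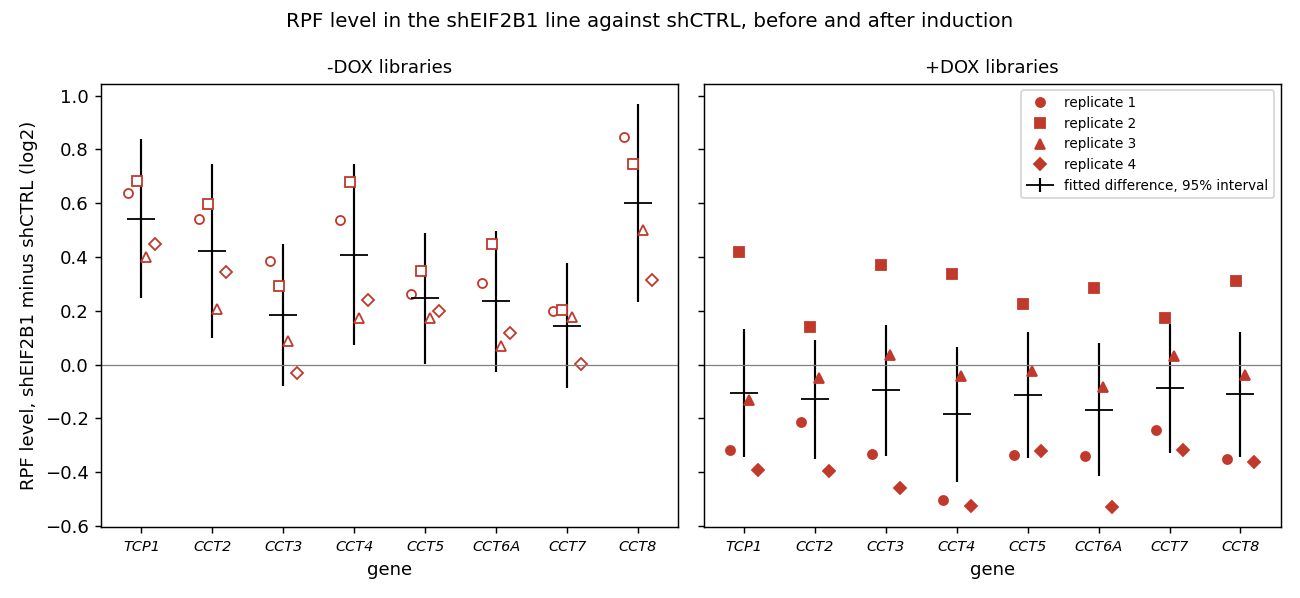
RPF level of the shEIF2B1 line minus that of shCTRL (log2, vertical axis) for each subunit, in -DOX libraries on the left and +DOX libraries on the right, with red markers for the 4 replicates and black bars for the fitted difference and its 95% interval. On the left the fitted differences are all above 0, up to 0.60 in CCT8, and on the right all lie between -0.18 and -0.09, with replicate 2 above 0 and replicate 4 below it throughout.

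Taken within its own line, the shEIF2B1 change from -DOX to +DOX was a fall in all 8 subunits. All 8 were called lower (26.7% of all genes were), and each fell in 4 of 4 weeks. The change ranged from -0.78 in CCT8 (95% interval -0.99 to -0.57; limma, adjusted p = 9.42e-07) to -0.29 in CCT7 (-0.50 to -0.08; limma, adjusted p = 0.0233), with a median of -0.63 against -0.02 over all genes. In shCTRL, DOX changed the RPF level by -0.20 in CCT5 to -0.01 in TCP1. None passed the threshold there or at an unadjusted p under 0.05 (limma), where 9.85% of all genes were called in either direction and 24.1% had such a p. Without replicate 1, in which the shCTRL levels rose with DOX in 8 of 8 subunits, CCT2, CCT3, CCT4, CCT5 and CCT6A were called lower in shCTRL, at -0.43 to -0.31, in a fit that called 31.6% of all genes in either direction.

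In total RNA no subunit was called upon shEIF2B1 (3.47% of all genes were, in either direction), and 2 of 8, CCT2 and CCT8, had an unadjusted p under 0.05 (limma), as had 15.3% of all genes. All 8 responses were below 0, from -0.36 in CCT2 (95% interval -0.70 to -0.01) to -0.21 in CCT7 (-0.52 to 0.11), with a median of -0.27. The RNA of CCT8 was 11.18, 11.40, 11.06 and 11.21 in shEIF2B1 -DOX and 10.99, 10.78, 10.90 and 10.83 in shEIF2B1 +DOX, and these groups did not overlap. In shCTRL it was 10.96, 11.06, 10.95 and 11.23 -DOX and 11.18, 10.90, 10.98 and 11.11 +DOX, and those did. Its response was -0.33 (SE 0.124; limma, adjusted p = 0.204). Within the shEIF2B1 line alone, 6 of 8 subunits were called lower in total RNA (16.8% of all genes were), all but CCT3 and CCT7.

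Uninduced shEIF2B1 and uninduced shCTRL differed less in total RNA than in RPFs. The differences were 0.09 to 0.22 and none was called (0.117% of all genes were), while CCT2, CCT3 and CCT8 had an unadjusted p under 0.05 (limma), as had 9.37% of all genes. On induction of shCTRL the total RNA of the 8 subunits changed by -0.13 to 0.04, and none was called (4.44% of all genes were) or had an unadjusted p under 0.05 (limma; 20.1% of all genes had one). Since cells were measured in bulk, less of an mRNA per cell and fewer cells holding it cannot be told apart.

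TE showed no called subunit upon shEIF2B1 (7.1% of all genes were called, in either direction). The lowest responses were -0.38 in CCT8 (95% interval -0.70 to -0.07; limma, adjusted p = 0.157) and -0.34 in TCP1 (-0.63 to -0.06; limma, adjusted p = 0.161), the 2 of 8 with an unadjusted p under 0.05 (20.2% of all genes had one). The others lay between -0.31 in CCT4 and -0.03 in CCT7. Without replicate 2, where 12.6% of all genes were called, CCT8 was called, at -0.52 (limma, adjusted p = 0.0459, against 0.0139 to 0.970 over all alternatives). With the trend on CDS GC content removed from every library, only 3 of 8 TE responses were below 0. CCT7 and CCT3 thus had total RNA responses (-0.21 and -0.25) close to their RPF responses, while in CCT8 (-0.33) and TCP1 (-0.30) the RPF responses lay further below 0. Whether the subunits differ from each other in TE response was not tested.

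Upon shEIF2B4 the RPF responses were below 0 in all 8 subunits and none was called (2.75% of all genes were, in either direction). TCP1 had the lowest, -0.51 (SE 0.232; limma, adjusted p = 0.294), and was the 1 of 8 with an unadjusted p under 0.05 (15.7% of all genes had one). Its log2 RPF level was 9.92, 11.17, 11.04 and 11.30 in shEIF2B4 -DOX and 9.75, 10.41, 10.31 and 10.86 in shEIF2B4 +DOX, lower on induction in 4 of 4 weeks. CCT8 followed at -0.38 (95% interval -0.91 to 0.16), and the others lay between -0.25 in CCT2 and -0.11 in CCT7. Without replicate 1, where 14.5% of all genes were called, TCP1 was called, at -0.49 with an adjusted p of 0.0993 (limma), against 0.00871 to 0.984 over all alternatives. Within the shEIF2B4 line alone, TCP1, CCT2, CCT5, CCT6A and CCT8 were called lower (12% of all genes were), from -0.52 to -0.35.

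In total RNA the responses to shEIF2B4 ran from -0.24 in CCT3 to -0.03 in CCT6A, and none was called (5.4% of all genes were) or had an unadjusted p under 0.05 (limma; 17.2% of all genes had one). In TE they ran from -0.34 in TCP1 to 0.12 in CCT3, with none called (0.0923% of all genes were) and none at an unadjusted p under 0.05 (limma; 17.1% of all genes were). Uninduced shEIF2B4 differed from uninduced shCTRL by -0.12 in CCT3 to 0.30 in TCP1 in RPFs, where the median of all genes was -0.13. None was called there (27.2% of all genes were, in either direction), and TCP1 alone had an unadjusted p under 0.05 (limma), as had 34.7% of all genes. Without replicate 1, TCP1 (0.42; limma, adjusted p = 0.0179, against 0.0179 to 0.683 over all alternatives) and CCT8 (0.43; limma, adjusted p = 0.0248, against 0.0248 to 0.796) were called higher and CCT2 was at 0.23, in a fit that called 49.6% of all genes. In total RNA this difference was -0.07 to 0.06 and none was called (4.9% of all genes were) or had an unadjusted p under 0.05 (limma; 17.6% of all genes had one).

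The knockdowns were compared directly by the difference of their responses over all 24 libraries. In RPFs this was below 0 in all 8 subunits, from -0.38 in CCT4 (95% interval -0.91 to 0.14) to -0.13 in CCT7 (-0.49 to 0.23), the shEIF2B1 response being the lower one. None was called (0.00897% of all genes were) and none had an unadjusted p under 0.05 (limma). The same held in total RNA, with differences of -0.23 to -0.01 (0.1% of all genes were called), and in TE, where the lowest difference was -0.19 in CCT8 and 0% of all genes were called. Of all genes 12.8% in total RNA and 6.14% in TE had an unadjusted p under 0.05 (limma). A difference as low as -0.91 lies within the interval for CCT4, so the data do not show that the knockdowns act alike on CCT.

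The size of the RPF response followed the base composition of the CDS. In order of rising GC3 (CCT8, CCT2, TCP1, CCT4, CCT6A, CCT5, CCT3, CCT7) the shEIF2B1 response was -0.71, -0.55, -0.65, -0.59, -0.40, -0.36, -0.28 and -0.23. In the runs shown above the order is looser: CCT7 had the most G or C in capitals and the response closest to 0, but CCT2, with 4, had a response above that of CCT4, with 7. Across the 8 genes Pearson's r was 0.95 and Spearman's rho 0.93, as a description only, since the genes share their libraries.

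All genes showed the same relation. Pearson's r over 10847 genes was 0.61, and the median RPF response was -0.28 in genes with a GC3 up to 49.0% and 0.21 in those with a GC3 over 69.2%. The subunits lay below the median of the genes of like composition. When genes were split into 10 bins of like size by GC3, each subunit's response lay under the median of its bin, by -0.17 in CCT2 to -0.33 in CCT8. The share of a subunit's bin with a lower response still was 11.9% for CCT8 to 27.6% for CCT2. After the trend with CDS GC content was removed from every library, the responses were -0.38 in CCT8 to -0.18 in CCT6A, still below 0 in all 8, and none was called (limma; 8.09% of all genes were).

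The uninduced difference ran the other way with GC3. It was highest in CCT8 and lowest in CCT7, with r = -0.91 over the 8 genes and -0.79 over all genes. With the GC trend removed none of the 8 was called higher (limma; 2.69% of all genes were, in either direction). Library by library, the slope of RPF levels on GC3 over all genes moved against the subunits' mean (Pearson's r = -0.82 over 24 libraries). In shEIF2B1 -DOX replicate 2, where the subunits stood 0.73 above their mean over 24 libraries, the slope was -0.19 log2 per 10 percentage points of GC3. In shEIF2B4 -DOX replicate 1, where they stood at -0.68, it was 0.19. Not every library followed this: in shCTRL +DOX replicate 2 the subunits stood at -0.42 with a slope of 0.0094. The part of the GC trend in the results was not tested beyond its removal.

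**Figure D5:**
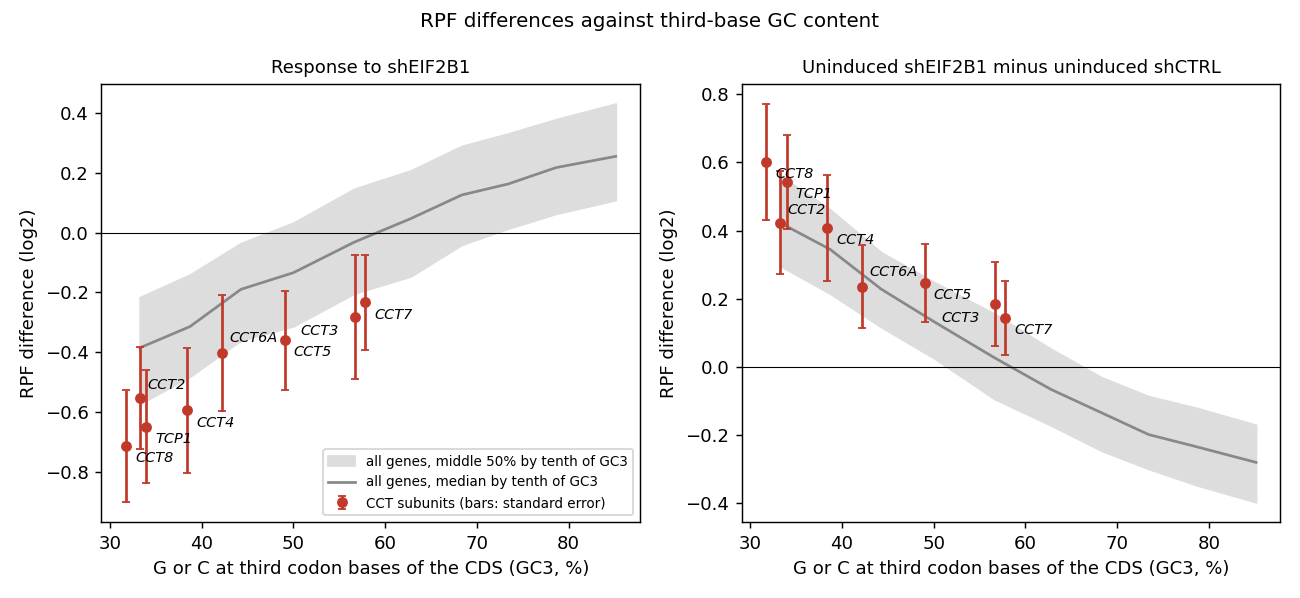
RPF response to shEIF2B1 (left) and RPF level of uninduced shEIF2B1 minus uninduced shCTRL (right), on the log2 scale, against the percentage of codons with G or C at the third base. Red points are the subunits with standard errors, and the grey line and band are the median and the middle 50% of all genes in 10 bins of GC3. On the left the subunits rise from -0.71 at 31.8% to -0.23 at 57.8% and stay below the grey line, and on the right they fall from 0.60 to 0.15.

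The subunits varied together. With each replicate's mean removed, the correlation between pairs of subunits over the 24 RPF libraries was 0.87 to 0.98 (median 0.94 over 28 pairs), and over the total RNA libraries 0.74 to 0.98 (median 0.83). The median correlation of a subunit with the other genes was 0.09 in RPFs and 0.01 in total RNA. These are descriptions over libraries that share weeks, lines and normalization.

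Many other genes followed the same course. Of 11137 other genes 251 had a correlation over 0.9 with the mean of the subunits' standardized RPF values. The 5 most like them were the splicing regulator HNRNPH1 (0.984), the cytosolic chaperone HSP90AA1 (0.983), the replication licensing factor CDC6 (0.979), the helicase subunit MCM6 (0.978) and the apoptosis inhibitor API5 (0.973). Their RPF responses to shEIF2B1 were -0.77, -1.26, -0.54, -0.68 and -0.54, all called lower (limma, adjusted p 0.00588 to 0.0865), where 15.3% of all genes were. They were picked over libraries that also give this response, so these calls are no separate result.

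Cochaperones of CCT were also among the called genes. Of 9 prefoldin and phosducin-like genes measured, 6 were called lower in RPFs upon shEIF2B1 and none higher, with a median of -0.43, where 15.3% of all genes were called lower. In uninduced shEIF2B1, 6 of the 9 were called higher than in uninduced shCTRL, with a median of 0.33, where 20.3% of all genes were called higher, and the same uninduced libraries enter the response. The prefoldin subunits PFDN4 (-0.98), PFDN1 (-0.93) and VBP1 (-0.68) and the phosducin-like TXNDC9 (-0.64) had the lowest responses (limma, adjusted p 0.00462 to 0.0218). In TE, PFDN1, PFDN4, PDCL3 and TXNDC9 were called lower, where 7.1% of all genes were called in either direction. That share was 0.19% with the CDS GC trend removed and 0% without replicate 1. The median response of the 9 genes in total RNA was 0.01.

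Among 13 heat shock chaperones 8 were called lower in RPFs upon shEIF2B1, with a median of -0.59, where 15.3% of all genes were. In uninduced shEIF2B1, 9 of the 13 were called higher than in uninduced shCTRL, with a median of 0.50, where 20.3% of all genes were called higher. HSPH1 (-1.35), HSP90AA1 (-1.26), HSPA4 (-0.85) and DNAJA1 (-0.84) were the lowest (limma, adjusted p 0.00293 to 0.0164). The same 4 were called lower in TE, where 7.1% of all genes were called in either direction, and 0% without replicate 1. HSF1, the transcription factor that drives chaperone genes, was called higher, by 0.40 (SE 0.128; limma, adjusted p = 0.0364). Before induction it was called lower than in shCTRL, at -0.34 (limma, adjusted p = 0.0645), and its change on induction of shCTRL was -0.30 (limma, adjusted p = 0.115).

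Few substrates of CCT were called in RPFs upon shEIF2B1, where 15.3% of all genes were called lower and 12% higher. Whether the lists differ from these shares was not tested. Of 13 actins and tubulins none was called in RPFs upon shEIF2B1 (limma), with a median of -0.02. That response subtracts the change on induction of shCTRL, whose median in these genes was -0.29, with 12 of 13 below 0 and 3 called lower. Of 9 WD repeat and other substrates only MLST8, a subunit of the mTOR complexes, was called, higher by 0.42 (SE 0.116; limma, adjusted p = 0.0175). Of 6 tubulin folding cofactors, TBCA (-0.86) and TBCE (-0.57), which take up tubulin after CCT, were called lower (limma, adjusted p 0.00468 and 0.0101). In total RNA the actins and tubulins had a median of -0.22 upon shEIF2B1, with none called (limma), and of -0.27 upon shEIF2B4, where ACTG1, a cytoplasmic actin, was called lower (-0.37, SE 0.110; limma, adjusted p = 0.0742). Of all genes 3.47% were called in total RNA upon shEIF2B1 and 5.4% upon shEIF2B4, in either direction.

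The proteasome core particle, is another ring of related subunits. Of 13 subunits measured in RPFs PSMA3 (-0.70), PSMA4 (-0.69) and PSMA6 (-0.72) were called lower upon shEIF2B1 (limma, adjusted p 0.00428 to 0.00747), where 15.3% of all genes were. The median was -0.03. Of the 13, 7 were below 0, against 8 of 8 in CCT, a contrast that was not tested. Of the CCT paralogs outside the ring, CCT6B was in the total RNA table alone, where it was called higher upon shEIF2B1 (0.35, SE 0.0988; limma, adjusted p = 0.0789), and CCT8L2 was in neither table. Upon shEIF2B4, PFDN1 was the only gene of these lists called in RPFs (-0.90, SE 0.242; limma, adjusted p = 0.0780), where 2.75% of all genes were called.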

How the data were processed

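Per the labels, lysates were digested with RNase I, RPFs were taken from the monosomes and disomes of sucrose gradients, and total cytoplasmic RNA was set aside before digestion and depleted of rRNA. The authors deduplicated all reads. Total RNA reads went to GENCODE v38 protein-coding transcripts (Bowtie2, RSEM), of which the most expressed per gene was kept. RPF reads, cleared of rRNA, tRNA and mitochondrial RNA, were aligned to the kept transcripts. Reads from pseudogene copies could therefore fall on the subunits. The authors deposited regularized log2 values, computed with DESeq2 for RPFs and for total RNA apart. The submitters' processing notes name R 4.3.1, cutadapt 1.18 and SAMtools 1.9. Without counts a count test was not possible, depth and counting error are unknown, and differences of low genes are shrunken.

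Groups and replicates come from the labels, and all 48 libraries were used. Every gene was fitted with limma 3.58.1 in R 4.3.3 (lmFit, eBayes with a mean-variance trend) on replicate, shRNA, DOX and their product, two-sided, with the study's shCTRL correction as the product term. The knockdown difference used 24 libraries, the uninduced comparison the -DOX ones. The study's methods place replicates in separate weeks. With group means removed, 52 of 60 same-week library pairs correlated over 0.1 in RPFs, 37 of 60 in total RNA and 55 of 60 in TE. CDSs came from GENCODE v29, matched without version for 97.3% of RPF genes. GC trends were removed by lowess with a span of 0.3. The fits were also run on simulated data whose noise was independent between genes and libraries. That setting lacks the variation that genes share here, so it does not give the rate of false calls in these data. Figures were drawn with matplotlib 3.10.9 in Python 3.11.15.

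The 8 members were named in every comparison. From each list at most 4 called genes were named, those with the largest RPF response, and the 5 genes most like the members. Members and lists were chosen with earlier results of these data known. Alternatives were fits without the block, without the trend, without the lowest 25% of genes, with median centring, at a threshold of 0.05, without each replicate, with GC removal, over 24 libraries, uncorrected for shCTRL, on weekly changes and, chosen after seeing the data, on induced libraries only.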

Additional observations from a re-analysis of the deposited data

Results flagged for a closer look

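In 14 of the 144 groups of 4 replicates, for 8 subunits in RPFs, total RNA and TE, one library lay far from the other three by Dixon's criterion, where chance gives about 1 in 20. Replicate 1 was the low library in 11 of the 14, and 10 of these were shEIF2B4 -DOX. Its log2 RPF level there was 10.09 in CCT2, 10.82 in CCT4, 11.45 in CCT5, 11.68 in CCT6A, 12.06 in CCT7 and 10.18 in CCT8, each below the other three libraries. Its TE in that group was -0.69 in CCT2, -0.45 in CCT3, -0.87 in CCT4 and -0.76 in CCT8. In shCTRL -DOX the TE of CCT2 in replicate 1 was -0.54, against 0.06 to 0.09 in the others. Replicate 4 was the high library in shCTRL +DOX for the RPF level of CCT8, 11.64, and for the TE of CCT4, 0.0154. Replicate 2 was low in shEIF2B1 +DOX for the total RNA of CCT2, 10.65, against 10.89 to 10.93. The subunits vary together, so these flags are not independent of each other.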

How the results depend on the processing

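The shEIF2B1 response of the subunits in RPFs kept its direction in 8 of 8 under every alternative, but not its calls. Against 4 called, the number was 0 without the replicate block, 0 with the CDS GC trend removed, 0 among induced libraries only, 2 with all 24 libraries in one fit, 8 without the shCTRL correction, and 0 to 6 when each replicate was left out. Of all genes 27.3% were called in the main fit, in either direction. In the same order, the alternatives called 0.449%, 8.09%, 10.5%, 17%, 49.4% and 13.7% to 24.4% of all genes. The cause was not tested. The adjusted p of CCT8, TCP1, CCT2 and CCT4 ranged up to 0.647, 0.674, 0.621 and 0.621 over the alternatives. For the uninduced shEIF2B1 difference in RPFs the number called, 4, was 0 without the replicate block, 0 with the GC trend removed, 2 at a threshold of 0.05, and 0 to 6 without one replicate. The main fit called 34.7% of all genes there, and these alternatives 0%, 2.69%, 17.7% and 0% to 39.6%. Without the shCTRL correction 5 subunits were called upon shEIF2B4 in RPFs, 6 upon shEIF2B1 and 2 upon shEIF2B4 in total RNA, and 4 upon shEIF2B1 in TE, against 0 each. Those fits called 23.8%, 34.4%, 34.4% and 17.1% of all genes, in that order and in either direction. Weekly changes gave 2 for shEIF2B4 in RPFs, where 18% of all genes were called, and induced libraries 2 for shEIF2B4 in total RNA, where 30% were. Median centring gave 1 (TCP1) for uninduced shEIF2B4 in RPFs, where 12.4% of all genes were called. Leaving out one replicate gave 0 to 1 for shEIF2B4 in RPFs, 0 to 1 for shEIF2B1 in TE, 0 to 5 and 0 to 2 for the shCTRL change in RPFs and total RNA, and 0 to 2 for uninduced shEIF2B4 in RPFs. The shares of all genes called were, in that order, 0.386% to 14.5%, 0% to 12.6%, 0.0269% to 31.6%, 0.0251% to 20.5% and 0.0359% to 49.6%. For the RPF density of the members, the log2 distance of 2.04 between CCT7 and TCP1 was 1.90 to 2.16 without one replicate. Removing the GC trend turned the median TE response from -0.18 to 0.01 upon shEIF2B1 and from -0.13 to 0.10 upon shEIF2B4, with no call either way. Over all genes, the 3038 called in RPFs upon shEIF2B1 became 50 without the block, 878 with the GC trend removed and 1558 and 1529 without replicate 1 or 4, and the 3862 called between uninduced shEIF2B1 and shCTRL became 0 without the block, 292 with the GC trend removed and 0 without replicate 2 or 4. Of 1392 values of single subunits, 40 lost a call, 44 gained one and none that was called in either fit changed sign, while 71 uncalled ones did. A density from the length of the reference protein was not run, as no protein table was used here. Unknown depth limits all values.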
